A study of Mus musculus with 28 samples.

Results

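The subject is a set of 10 genes outside the SLAM interval of chromosome 1 whose array signal in splenic CD4+ T cells differed between C57BL/6 mice and both lines that carry the Sle1b interval. They were picked from 17098 genes with a single symbol on the array because of that difference, so their differences from C57BL/6 are given as descriptions without a test. The genes are Rell1, Efhd2, Slc25a37, Pisd-ps3, Nnt, Efcab7, Cdk5rap1, Dnajc16, Enc1 and Kctd14, and together they hold 23 of the 45037 probe sets that are not controls. A probe set is a group of short oligonucleotides read as 1 value. It can match more than 1 transcript, and 551 probe sets of the array carry several gene symbols. Where a gene has several, they are numbered from the brightest, set 1, to the dimmest.

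The cells came from spleens of female mice aged 12 weeks and were taken as the whole CD4+ T cell fraction. The mice were wild-type C57BL/6, the congenic line B6.Sle1b, or Sle1b.BACSlamf6-H1, called Sle1b.BAC here, which by its name adds a bacterial artificial chromosome with the H1 form of Slamf6 to the Sle1b background. Cells of each strain were studied without stimulation and after 4 h or 24 h on plates coated with anti-CD3 antibody at 0.1 µg/ml. There were 3 biological arrays in each of 8 groups and 2 for C57BL/6 at 24 h, which makes 26 arrays. The labels call 2 further arrays of C57BL/6 at 24 h technical without saying which RNA they repeat. They do not say what limits the lines as models, such as the number of founders of the transgene, and they do not tie a group's samples to different animals. Every p-value therefore reflects how far these particular samples scatter, and some of that scatter may be technical.

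As background, a congenic line carries a donor segment on an otherwise fixed recipient genome, and Sle1b is a lupus susceptibility interval that spans genes of the SLAM receptor family. Among the members, Nnt is known for a deletion in the substrain C57BL/6J, and the labels give C57BL/6 without a substrain. Anti-CD3 engages the T cell receptor complex and drives a broad change of transcript levels over hours.

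None of the 9 members placed by RefSeq on assembly GRCm38.p6 lies on chromosome 1. Efhd2, Dnajc16 and Efcab7 lie on chromosome 4, Nnt and Enc1 on 13, Rell1 on 5, Slc25a37 on 14, Cdk5rap1 on 2 and Kctd14 on 7. Pisd-ps3 was not placed there. All levels are log2 of the deposited intensity and every difference is on that scale.

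Among the 23 probe sets, 20 were above the background of the arrays in all 9 groups, and 2 (set 3 of Enc1 and set 4 of Kctd14) were at background in all 9. Over the whole array, 23028 of 45037 probe sets were above background in all 9 groups. The shares of all probe sets given below include those at background. Of the 23 probe sets, 10 were separated from C57BL/6 without overlap of single arrays in both lines at all 3 times, where 0.091% of all probe sets were; as the members were picked on this contrast, nothing is read from that share. They belonged to 7 genes, namely both sets of Rell1, set 1 of Efhd2, Slc25a37, Nnt and Dnajc16, the 3 sets of Pisd-ps3 and the only set of Cdk5rap1. Efcab7, Enc1 and Kctd14 were separated at some of the times: counted by time, 14 probe sets were separated in both lines unstimulated (1.29% of all), 13 at 4 h (2.63%) and 14 at 24 h (6.76%). The number separated at all 3 times depended on the processing. After a second quantile normalization it was 9 (0.0777% of all), without Cdk5rap1 and set 3 of Pisd-ps3 but with set 2 of Nnt. With the technical arrays included it was also 9 (0.0777% of all, or 0.0822% with these averaged), which left out Cdk5rap1. After arrays were centred on their median it was 7 (0.0688%), which left out Nnt, Cdk5rap1 and Dnajc16. Both lines were compared with the same C57BL/6 arrays.

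On measures the choice of members did not use, the lines were compared with each other and each time was compared with unstimulated cells. Between the lines limma called 1 of 23 member probe sets, that of Cdk5rap1, over the mean of the times, where 0.0755% of all probe sets were called. At the single times (unstimulated, 4 h and 24 h) limma called 0 of 23, and 0.0289%, 0.0% and 0.00222% of all probe sets were called. At an unadjusted p under 0.05 were 3, 1 and 3 of 23, against 3362, 1668 and 2819 of all 45037 probe sets. At 4 h of anti-CD3, 3 of 23 were called against 13.7% of all, namely Efcab7 higher (5.59% of all were higher) and both sets of Rell1 lower (8.15%). At 24 h 14 of 23 were called, in 8 of the 10 genes, against 35.6% of all. Of these 7 rose (16.3% of all), in Efhd2, Slc25a37, Nnt and Efcab7, and 7 fell (19.3%), in Rell1, Pisd-ps3, Cdk5rap1 and Enc1. The median change of the members at 24 h was -0.01, against 0.03 over all probe sets. Within single strains, the change by 24 h was called for 6 of 23 in C57BL/6 (19.2% of all), 10 in B6.Sle1b (22.7%) and 9 in Sle1b.BAC (24.4%). By limma, the strain difference changed with stimulation in 0 of 23 at 4 h and 0 of 23 at 24 h, where 0.00222% and 0.0% of all probe sets were called. At an unadjusted p under 0.05 were 4 of 23 at 4 h and 6 at 24 h, against 1219 and 1267 of all 45037 probe sets. This contrast shares arrays with the one the members were picked on.

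**Figure D1:**
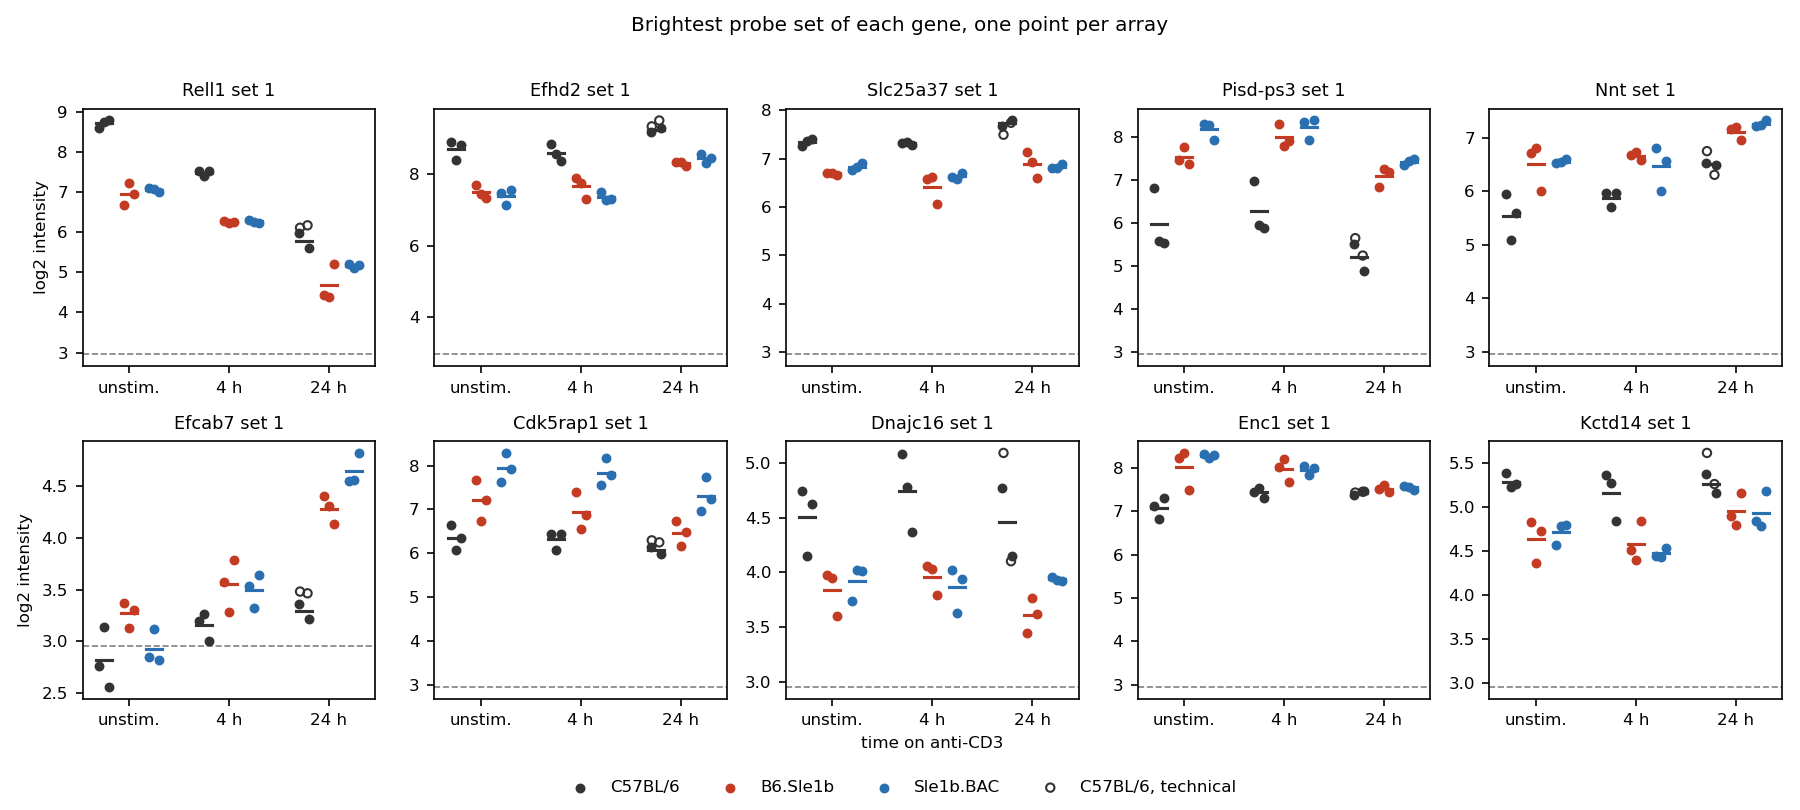
The log2 intensity (vertical axes) of the brightest probe set of each gene is plotted by strain and time on anti-CD3, with 1 point per array, bars at group means, open circles for the technical C57BL/6 arrays and a dashed line at the mean background of the arrays. C57BL/6 lies above both lines for Rell1, Efhd2, Slc25a37 and Dnajc16 and below them for Pisd-ps3, Nnt and Cdk5rap1 at every time, whereas Enc1 converges at 24 h.

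Nnt encodes the nicotinamide nucleotide transhydrogenase of the inner mitochondrial membrane, which uses the proton gradient to make NADPH. Nnt set 1 in C57BL/6 read 5.95, 5.08 and 5.59 unstimulated, 5.97, 5.70 and 5.97 at 4 h, and 6.53 and 6.48 at 24 h. Nnt in B6.Sle1b read 6.71, 6.81 and 6.0 unstimulated, 6.67, 6.73 and 6.59 at 4 h, and 7.17, 7.21 and 6.95 at 24 h. Nnt in Sle1b.BAC read 6.52, 6.54 and 6.59, then 6.81, 6.01 and 6.57, then 7.21, 7.24 and 7.32. Every array of the lines lay above every C57BL/6 array of the same time, by the narrowest margin in unstimulated B6.Sle1b (6.0 against 5.95) and in Sle1b.BAC at 4 h (6.01 against 5.97). The mean difference from C57BL/6 was 0.78 ± 0.12 (SE) in each line, or 1.72-fold. C57BL/6 was not at background on any group mean. Set 2 differed by 1.15 ± 0.25 and 1.16 ± 0.25, and the sets correlated at r = 0.97 over the 26 arrays after the mean of each time was removed. Its lowest C57BL/6 value, 3.40 in unstimulated array 2, came from an array whose upper quartile of intensity was 34.8, near the lowest of all arrays (34.2 to 53.3), and the part of array brightness was not tested.

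The lines did not differ from each other in Nnt by more than the spread (-0.00 ± 0.12 for set 1, 95% confidence interval -0.25 to 0.25, limma adjusted p = 0.999). After 24 h of anti-CD3, Nnt rose by 0.76 ± 0.12 (adjusted p = 3.11e-05) and 1.10 ± 0.25 (adjusted p = 0.00113), averaged over the strains. Set 1 rose in each strain, by 0.97 in wild type, 0.60 in B6.Sle1b and 0.71 in the BAC line (adjusted p = 0.00382, 0.0395 and 0.0140). The level in C57BL/6 at 24 h (6.51 ± 0.04, SD, n = 2) thus came to about that of unstimulated B6.Sle1b (6.51 ± 0.44, n = 3) and Sle1b.BAC (6.55 ± 0.04, n = 3). Of 29 probe sets of 12 other genes of mitochondrial NADPH supply and use, such as glutathione and thioredoxin enzymes, 0 were called between strains by limma, whereas 16 rose and 5 fell at 24 h. Among the risers were the isocitrate dehydrogenase Idh2 (1.56 ± 0.14, adjusted p = 5.88e-09), the peroxiredoxin Prdx3 (1.22 ± 0.13) and the mitochondrial thioredoxin Txn2 (1.16 ± 0.05). The malic enzyme Me2 fell by 0.45 (limma adjusted p = 0.0375). Such lists of relatives for all members hold 172 probe sets. Limma called 0 of them in either line against C57BL/6, where 0.206% and 0.187% of all probe sets were called. A short list with 0 calls is therefore near the share of the array. At 24 h 57 of the 172 rose and 35 fell, where 16.3% and 19.3% of all did.

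Slc25a37, mitoferrin 1, carries iron into mitochondria for haem and iron-sulphur cluster synthesis. Slc25a37 set 1 in C57BL/6 read 7.25, 7.37 and 7.41 unstimulated, 7.32, 7.35 and 7.29 at 4 h, and 7.67 and 7.79 at 24 h. Slc25a37 in B6.Sle1b read 6.71, 6.71 and 6.67, then 6.59, 6.62 and 6.06, then 7.15, 6.94 and 6.60. Slc25a37 in Sle1b.BAC read 6.77, 6.84 and 6.90, then 6.62, 6.58 and 6.71, then 6.80, 6.81 and 6.89. C57BL/6 arrays were the highest at each time. The difference was -0.79 ± 0.08 in B6.Sle1b and -0.70 ± 0.08 in Sle1b.BAC, so that the lines had 57.7% and 61.7% of the C57BL/6 level.

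The other probe sets of Slc25a37 did not share this picture. Set 2 gave 0.16 ± 0.19 in B6.Sle1b and 0.20 ± 0.19 in Sle1b.BAC and correlated with set 1 at r = -0.09. Set 3, which was dim (mean 3.47), gave -0.37 ± 0.17 and -0.43 ± 0.17. With anti-CD3 the sets also parted: at 24 h set 2 rose by 0.75 ± 0.19 (adjusted p = 0.00338) and set 3 by 0.54 ± 0.17, whereas set 1 changed by 0.19 ± 0.08 and was not called (adjusted p = 0.0607). When array 1 of C57BL/6 at 24 h was left out, set 3 was no longer called (adjusted p = 0.0573). Among 10 measured genes of iron uptake, haem and cluster synthesis (19 probe sets), 0 were called between strains by limma, and 7 probe sets rose and 6 fell at 24 h, led by the transferrin receptor Tfrc (2.37 ± 0.11, adjusted p = 1.35e-13). Summed erythroid marker intensity, which overlapped between strains, is given with the other markers.

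Cdk5rap1 encodes a mitochondrial enzyme that modifies transfer RNAs and was first known as a binding protein of the CDK5 activator. Cdk5rap1 in C57BL/6 read 6.65, 6.07 and 6.35 unstimulated, 6.44, 6.08 and 6.45 at 4 h, and 6.14 and 5.98 at 24 h. Cdk5rap1 in B6.Sle1b read 7.68, 6.73 and 7.22, then 7.40, 6.56 and 6.88, then 6.73, 6.17 and 6.47. Cdk5rap1 in Sle1b.BAC read 7.62, 8.29 and 7.93, then 7.56, 8.18 and 7.78, then 6.96, 7.74 and 7.23. C57BL/6 was lowest, B6.Sle1b between and Sle1b.BAC highest on group means at all 3 times. Single arrays of the lines overlapped in unstimulated cells only. The technical C57BL/6 arrays at 24 h read 6.29 and 6.25 and lay within the range of B6.Sle1b. Differences from C57BL/6 were 0.62 ± 0.16 in B6.Sle1b and 1.45 ± 0.16 in Sle1b.BAC.

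Between the lines, Sle1b.BAC was higher in Cdk5rap1 by 0.83 ± 0.15, or 1.78-fold (95% confidence interval 0.52 to 1.14, limma adjusted p = 0.0392). At single times it was higher by 0.74, 0.90 and 0.85 and was not called (adjusted p = 0.534, 1.0 and 0.634). The call lay near the threshold: it was lost without any 1 of 14 of the 26 arrays, named with the other limits, with an adjusted p of up to 0.109 when array 2 of unstimulated Sle1b.BAC was left out.

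In both lines, arrays with the same replicate number kept their order in Cdk5rap1 over time. In B6.Sle1b, array 1 was highest and array 2 lowest at all 3 times, and in Sle1b.BAC array 2 was highest and array 1 lowest at all 3. In C57BL/6 array 2 was lowest at all 3 times, and the highest array changed. Averaged over the times, arrays 1, 2 and 3 gave 7.27, 6.48 and 6.86 in B6.Sle1b and 7.38, 8.07 and 7.65 in Sle1b.BAC. Of the variation within groups, 94.2% lay between these sets of strain and number, against a median of 42.9% over all probe sets, and 1 of 45037 probe sets had a higher share. Whether arrays of 1 strain and number share an animal is not in the labels. With strain and number as a random block the adjusted p was 0.0989, and an exact two-sided permutation test of the 3 means against 3 gave p = 0.10, the smallest that this design allows. At 24 h Cdk5rap1 fell by 0.56 ± 0.16 over the strains (adjusted p = 0.00628). Its changes were -0.29 in wild type, -0.75 in B6.Sle1b and -0.64 in the BAC line, of which that of B6.Sle1b was called (adjusted p = 0.0400). Of 19 probe sets of 10 CDK5-binding and transfer RNA-modifying genes, 0 were called between strains by limma and 7 rose at 24 h.

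**Figure D2:**
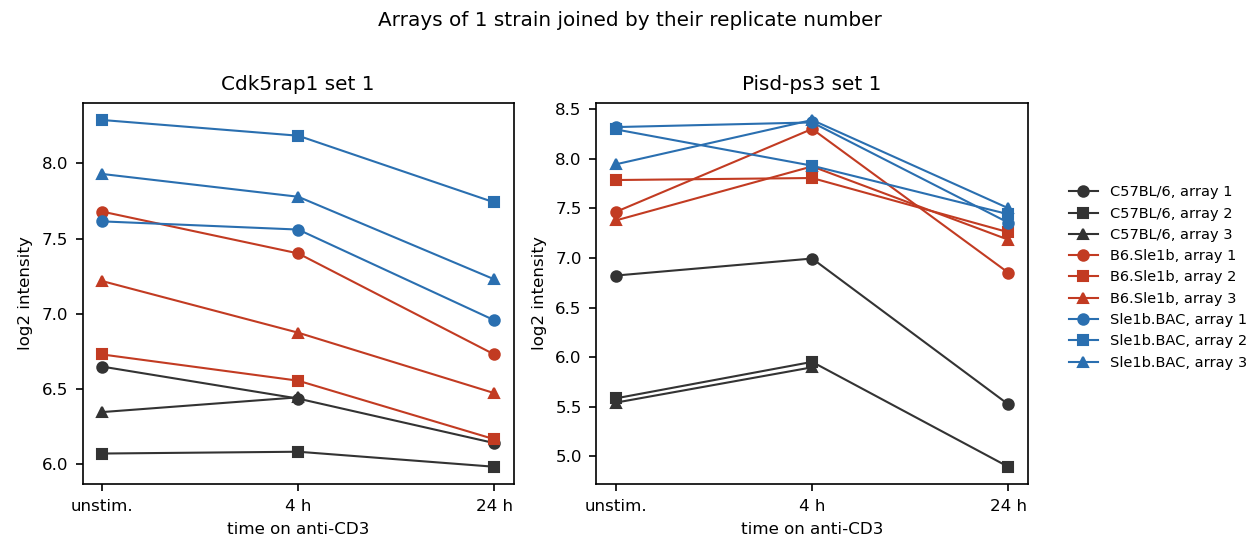
Cdk5rap1 and Pisd-ps3 set 1 are plotted as log2 intensity against time on anti-CD3, with the arrays of a strain joined by their replicate number as marker shape. The Cdk5rap1 lines of a strain run nearly parallel, with array 2 at the top in Sle1b.BAC (8.29, 8.18 and 7.74) and at the bottom in B6.Sle1b (6.73, 6.56 and 6.17).

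Pisd-ps3 is annotated as a pseudogene of Pisd, the mitochondrial enzyme that makes phosphatidylethanolamine from phosphatidylserine. Pisd-ps3 set 1 in C57BL/6 read 6.82, 5.59 and 5.54 unstimulated, 6.99, 5.95 and 5.90 at 4 h, and 5.53 and 4.90 at 24 h. Pisd-ps3 in B6.Sle1b read 7.47, 7.79 and 7.38, then 8.30, 7.81 and 7.92, then 6.85, 7.26 and 7.18. Pisd-ps3 in Sle1b.BAC read 8.32, 8.30 and 7.95, then 8.37, 7.93 and 8.39, then 7.36, 7.44 and 7.50. All arrays of the lines exceeded those of C57BL/6, in which array 1 stood above the others at each time. The difference from C57BL/6 was 1.73 ± 0.18 in B6.Sle1b and 2.12 ± 0.18 in Sle1b.BAC, or 3.31-fold and 4.36-fold, the widest of the 23 probe sets.

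Sets 2 and 3 of Pisd-ps3 gave smaller differences, 0.80 ± 0.10 and 0.96 ± 0.14 in B6.Sle1b and 0.90 ± 0.10 and 0.87 ± 0.14 in Sle1b.BAC. A further 3 probe sets are shared with Pisd-ps1 and were left out; their differences were 0.16 to 0.36 in B6.Sle1b and 0.26 to 0.37 in Sle1b.BAC. Signal from near-identical copies cannot be told apart by such sets. The parent gene Pisd differed by 0.05 ± 0.05 between B6.Sle1b and C57BL/6 and was not called (limma adjusted p = 1.0). Between the lines, set 1 differed by 0.40 ± 0.17, which was not called (Sle1b.BAC minus B6.Sle1b, adjusted p = 0.606). At 24 h the 3 sets of Pisd-ps3 fell by 0.66, 0.83 and 0.59 (adjusted p = 0.00474, 2.91e-07 and 0.00163), whereas Pisd rose by 0.43 ± 0.05 (adjusted p = 8.88e-07). Of 18 probe sets of 7 genes of phosphatidylserine and phosphatidylethanolamine synthesis, Pisd among them, limma called 0 between strains, and 5 rose and 1 fell at 24 h.

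Rell1 encodes a membrane protein of the RELT family, relatives of the tumour necrosis factor receptors. Rell1 set 1 in C57BL/6 read 8.62, 8.77 and 8.80 unstimulated, 7.55, 7.40 and 7.53 at 4 h, and 5.98 and 5.61 at 24 h. Rell1 in B6.Sle1b read 6.70, 7.23 and 6.97, then 6.29, 6.23 and 6.26, then 4.45, 4.38 and 5.20. Rell1 in Sle1b.BAC read 7.10, 7.08 and 7.02, then 6.32, 6.26 and 6.24, then 5.21, 5.12 and 5.18. C57BL/6 was highest throughout, and each strain stepped down at each time. The difference from C57BL/6 was -1.37 ± 0.10 in B6.Sle1b and -1.17 ± 0.10 in Sle1b.BAC, or 38.7% and 44.5% of its level. Set 2 gave -1.56 ± 0.15 and -1.54 ± 0.15 and correlated with set 1 at r = 0.86.

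Rell1 had the strongest response to anti-CD3 of the 10 genes. At 4 h set 1 fell by 0.91 ± 0.09 and set 2 fell by 1.10 ± 0.15 (limma adjusted p = 2.13e-07 and 1.16e-05). At 24 h set 1 fell by 2.37 ± 0.10 and set 2 fell by 2.67 ± 0.15 (adjusted p = 1.40e-14 and 3.73e-12). The change of set 1 by 24 h was -2.93 in wild type, -2.29 in B6.Sle1b and -1.90 in the BAC line, called in each. The fall by 24 h in C57BL/6 exceeded that of the lines by 0.84 ± 0.21 for set 1 and 0.58 ± 0.34 for set 2, and neither was called over the whole array (adjusted p = 1.0). Of 10 probe sets of the relatives Relt and Rell2 and the kinases Wnk1, Oxsr1 and Stk39, 0 were called between strains by limma. At 24 h 3 rose and 3 fell, among them Stk39 (1.34 ± 0.17, adjusted p = 8.25e-07) and Wnk1 (-0.94 ± 0.14, adjusted p = 6.36e-06).

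Efhd2, or swiprosin 1, is a calcium-binding adaptor of the actin cytoskeleton in lymphocytes. Efhd2 set 1 in C57BL/6 read 8.91, 8.39 and 8.82 unstimulated, 8.86, 8.57 and 8.36 at 4 h, and 9.19 and 9.30 at 24 h. Efhd2 in B6.Sle1b read 7.69, 7.46 and 7.33, then 7.90, 7.76 and 7.31, then 8.35, 8.34 and 8.24. Efhd2 in Sle1b.BAC read 7.48, 7.15 and 7.55, then 7.51, 7.29 and 7.31, then 8.57, 8.31 and 8.46. C57BL/6 lay above both lines at each time, while the lines overlapped with each other at each time. The mean difference from C57BL/6 was -1.03 ± 0.10 in B6.Sle1b and -1.11 ± 0.10 in Sle1b.BAC. Set 2 of Efhd2 had the opposite sign, 0.25 ± 0.11 and 0.21 ± 0.11, and its unstimulated arrays overlapped, reading 7.80, 7.0 and 7.66 in C57BL/6, 7.84, 7.80 and 7.46 in B6.Sle1b, and 7.80, 7.58 and 7.62 in Sle1b.BAC. At 24 h both lines lay above C57BL/6 in set 2, with 8.44 and 8.28 in C57BL/6, 8.79, 8.56 and 8.5 in B6.Sle1b, and 8.75, 8.74 and 8.91 in Sle1b.BAC. The sets correlated at r = -0.14 across strains. They did respond alike to anti-CD3, rising at 24 h by 0.80 ± 0.10 (adjusted p = 5.94e-07) and 0.97 ± 0.11 (adjusted p = 3.43e-07), with a called rise in each strain. Of 10 probe sets of 6 relatives and partners of Efhd2, such as Swap70 and Coro1a, limma called 0 between strains, and 3 rose and 1 fell at 24 h. The brightest sets of the relatives Efhd1 and Syk (means 2.34 and 2.24) lay below the background of the arrays.

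Dnajc16 encodes a J-domain co-chaperone of the endoplasmic reticulum. Dnajc16 set 1 in C57BL/6 read 4.74, 4.15 and 4.63 unstimulated, 5.08, 4.78 and 4.37 at 4 h, and 4.77 and 4.15 at 24 h. Dnajc16 in B6.Sle1b read 3.98, 3.95 and 3.60, then 4.06, 4.03 and 3.79, then 3.44, 3.77 and 3.62. Dnajc16 in Sle1b.BAC read 3.74, 4.02 and 4.01, then 4.02, 3.63 and 3.94, then 3.96, 3.93 and 3.93. C57BL/6 was higher without overlap, and came closest unstimulated (4.15 against 4.02) and at 24 h (4.15 against 3.96). Mean differences were -0.77 ± 0.11 and -0.66 ± 0.11. The dim set 2 (mean 3.36) gave -0.07 and 0.04. Neither set was called at 4 h or 24 h (set 1 changed by 0.10 ± 0.11 and -0.09 ± 0.11, limma adjusted p = 0.678 and 0.616). Of 24 probe sets of 8 other J-domain and heat shock protein genes, limma called 0 between strains, and 7 rose and 5 fell at 24 h.

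Promoter sequences were given in RefSeq tables of GRCm38.p6 for 4 of the 10 members (Rell1, Efhd2, Dnajc16 and Cdk5rap1). The promoters of 3 of them, the genes that were lower in both lines, are shown. Over the 26 arrays with time means removed, Efhd2 set 1 and Rell1 set 1 correlated at Pearson r = 0.88, as did Efhd2 set 1 and Dnajc16 set 1. The strain difference for which the members were picked enters these coefficients, so the likeness is no independent result. Each line gives the 250 bases before the annotated start, 5′ to 3′ on the gene's strand, which is the minus strand for all 3. The windows are chr5:63968898-63969147 for Rell1, chr4:141874921-141875170 for Efhd2 and chr4:141790645-141790894 for Dnajc16. Capitals mark GC boxes (GGGCGG, either strand) and the E-box CACGTG. These are reference sequences, and those of the congenic lines were not analysed here.
Rell1: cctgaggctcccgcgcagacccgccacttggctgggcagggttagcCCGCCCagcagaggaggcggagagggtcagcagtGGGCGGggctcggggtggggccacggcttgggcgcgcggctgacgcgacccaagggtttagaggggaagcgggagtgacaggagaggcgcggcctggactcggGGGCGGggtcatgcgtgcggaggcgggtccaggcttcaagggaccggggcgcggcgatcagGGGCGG
Efhd2: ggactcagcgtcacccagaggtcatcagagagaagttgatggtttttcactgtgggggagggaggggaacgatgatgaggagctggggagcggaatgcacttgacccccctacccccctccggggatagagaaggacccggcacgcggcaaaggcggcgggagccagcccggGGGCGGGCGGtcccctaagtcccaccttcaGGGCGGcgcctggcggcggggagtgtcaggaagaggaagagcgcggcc
Dnajc16: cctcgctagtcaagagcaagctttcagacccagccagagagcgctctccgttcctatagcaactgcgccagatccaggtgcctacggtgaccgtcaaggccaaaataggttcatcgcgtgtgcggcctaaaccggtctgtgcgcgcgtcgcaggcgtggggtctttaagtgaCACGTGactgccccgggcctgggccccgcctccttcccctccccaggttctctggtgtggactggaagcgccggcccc
The Rell1 window held 4 GC boxes, that of Efhd2 3 (of which 2 overlap), and that of Dnajc16 0. A GC box occurred in 32.7% of 32851 promoter windows of this length. The E-box of Dnajc16 occurred in 6.02%. None of the 3 windows held CCAAT on either strand, which 33.8% of windows did. The same was true of TATAAA (12.4% of windows) and of TGACGTCA (1.55%). Their GC content was 74.4%, 67.2% and 63.6%.

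Efhd2 and Dnajc16 are close on chromosome 4: among genes with a probe set, Casp9 and Cela2a lie between them in the RefSeq order. Neither of those was called between strains. Over the 10 measured genes on each side of each member, 162 genes and 274 probe sets, 2 were called in B6.Sle1b and 2 in Sle1b.BAC, all lower, against 0.206% and 0.187% of all probe sets. They were the same 2 genes, and they were compared with the same C57BL/6 arrays. Pgm2, a phosphoglucomutase gene 2 genes from Rell1 on chromosome 5, gave -0.46 ± 0.09 (limma adjusted p = 0.0337) and -0.45 ± 0.09 (adjusted p = 0.0419). In unstimulated cells it read 6.31, 6.16 and 6.41 in C57BL/6, 5.92, 5.80 and 5.69 in B6.Sle1b, and 5.71, 5.74 and 5.45 in Sle1b.BAC. Its calls held in 13 and 9 of the 26 fits that left out 1 array, and the adjusted p reached 0.264 and 0.279 without array 1 of C57BL/6 at 24 h.

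Pgm1, a phosphoglucomutase gene next to Efcab7 on chromosome 4, gave -0.56 ± 0.10 (limma adjusted p = 0.0129) and -0.63 ± 0.10 (adjusted p = 0.00535) in its brighter probe set. Its dimmer set (mean 3.51) gave -0.39 ± 0.17 and -0.17 ± 0.17 and was not called (adjusted p = 1.0 and 0.947). In unstimulated cells it read 5.91, 5.92 and 5.96 in C57BL/6, 5.56, 5.43 and 5.16 in B6.Sle1b, and 5.07, 5.39 and 5.37 in Sle1b.BAC, without overlap. The B6.Sle1b call of Pgm1 did not hold when array 1 of C57BL/6 at 24 h was left out (adjusted p = 0.0880). Efcab7 itself was higher in the lines, the opposite sign.

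Efcab7 encodes an EF-hand protein that anchors the EVC complex in Hedgehog signalling at the primary cilium. It was the dimmest gene of the set, and C57BL/6 without stimulation was at background. Efcab7 in C57BL/6 read 2.76, 3.13 and 2.56 unstimulated, 3.19, 3.26 and 3.0 at 4 h, and 3.36 and 3.22 at 24 h. Efcab7 in B6.Sle1b read 3.37, 3.13 and 3.31, then 3.57, 3.29 and 3.79, then 4.40, 4.31 and 4.14. Efcab7 in Sle1b.BAC read 2.84, 3.12 and 2.82, then 3.53, 3.32 and 3.64, then 4.55, 4.56 and 4.82. Unstimulated arrays overlapped, whereas at 24 h both lines lay above C57BL/6, by 1.0 ± 0.17 and 1.36 ± 0.17. Against the array background, unstimulated B6.Sle1b was at least 1.14-fold above C57BL/6.

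Efcab7 was the only member that rose at 4 h, by 0.40 ± 0.09 over the strains (limma adjusted p = 0.00256). At 24 h it rose by 1.07 ± 0.09 (adjusted p = 2.05e-09). By strain the rise at 24 h was 1.01 ± 0.15 in B6.Sle1b (adjusted p = 2.16e-05) and 1.72 ± 0.15 in Sle1b.BAC (adjusted p = 1.32e-08). In C57BL/6 the measured change was 0.47 ± 0.17 (adjusted p = 0.0538), or at least 1.15-fold since it starts at background. On the measured values the rise in the lines minus that in C57BL/6 was 0.89 ± 0.20, which was not called (limma adjusted p = 1.0) and has no exact size because unstimulated C57BL/6 was at background. Of 14 probe sets of 8 Hedgehog pathway genes, 0 were called between strains by limma and 4 rose at 24 h.

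Enc1 encodes a BTB and kelch domain protein that links to the cullin 3 ubiquitin ligase. Enc1 set 1 in C57BL/6 read 7.13, 6.81 and 7.31 unstimulated, 7.45, 7.54 and 7.32 at 4 h, and 7.37 and 7.48 at 24 h. Enc1 in B6.Sle1b read 8.22, 8.35 and 7.49, then 8.03, 8.20 and 7.68, then 7.51, 7.61 and 7.44. Enc1 in Sle1b.BAC read 8.32, 8.24 and 8.30, then 8.04, 7.84 and 8.0, then 7.59, 7.57 and 7.50. The lines lay above C57BL/6 without overlap unstimulated and at 4 h, and at 24 h B6.Sle1b overlapped with C57BL/6. The difference was 0.93, 0.53 and 0.09 (SE 0.17, 0.17 and 0.19) in B6.Sle1b and 1.20, 0.52 and 0.13 in Sle1b.BAC. Set 2, which correlated with set 1 at r = 0.92, gave 0.96, 0.47 and -0.00 in B6.Sle1b and 1.17, 0.28 and 0.31 in Sle1b.BAC.

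With anti-CD3 the strains came closer in Enc1 set 1. At 24 h it fell by 0.50 ± 0.17 in B6.Sle1b (limma adjusted p = 0.0379) and by 0.73 ± 0.17 in Sle1b.BAC (adjusted p = 0.00228), whereas C57BL/6 changed by 0.34 ± 0.19 (adjusted p = 0.284). The response of the lines minus that of C57BL/6 was -0.96 ± 0.23 for set 1 and -0.91 ± 0.24 for set 2. Neither was called over the whole array (limma adjusted p = 1.0), although both were among the 6 of 23 at an unadjusted p under 0.05. The fall over all strains, 0.30 ± 0.10 (adjusted p = 0.0260), was lost without array 3 of unstimulated C57BL/6, arrays 1 or 2 of unstimulated B6.Sle1b, or array 1 of C57BL/6 at 24 h (adjusted p up to 0.0705). Of 15 probe sets of 8 genes of the kelch, cullin 3 and Keap1 group, 0 were called between strains by limma, and at 24 h 2 rose and 6 fell.

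**Figure D3:**
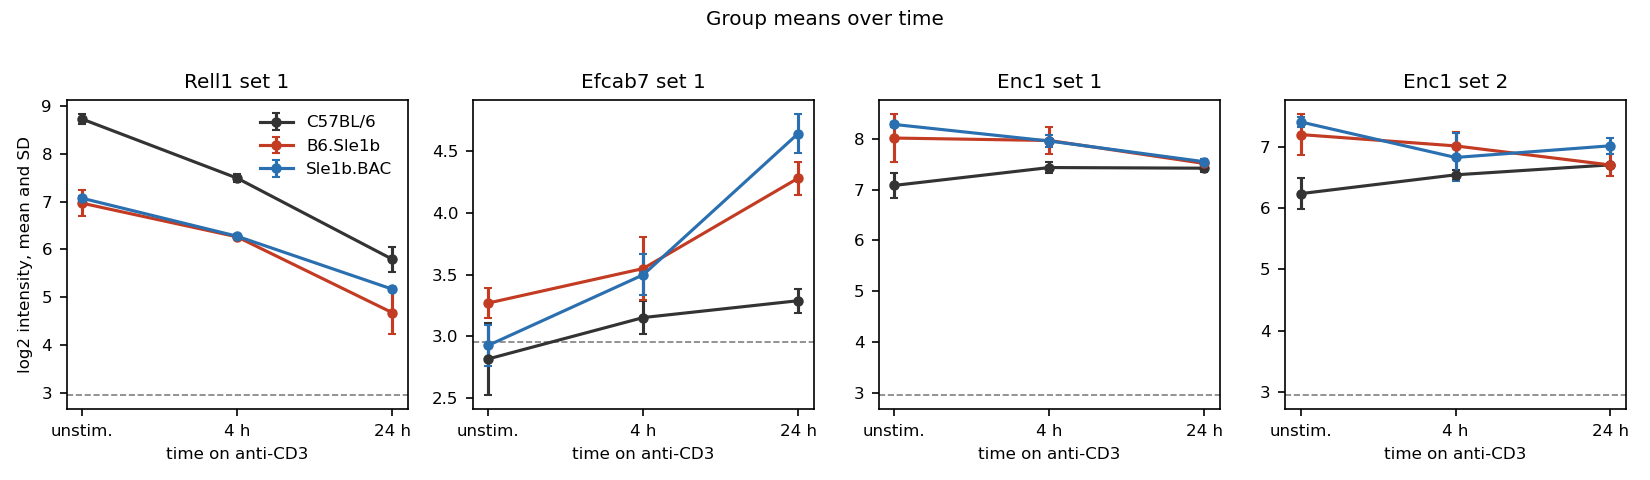
Group means with SD of log2 intensity are plotted against time on anti-CD3 for Rell1 set 1, Efcab7 and Enc1 sets 1 and 2, with a dashed line at the mean background of the arrays. Rell1 falls in all strains, Efcab7 reaches 4.28 and 4.65 in the lines against 3.29 in C57BL/6 at 24 h, and the strains converge in Enc1 set 1.

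Kctd14 encodes a protein with a BTB domain of the potassium channel tetramerisation type. Kctd14 set 1 in C57BL/6 read 5.38, 5.23 and 5.26 unstimulated, 5.36, 5.28 and 4.85 at 4 h, and 5.38 and 5.15 at 24 h. Kctd14 in B6.Sle1b read 4.83, 4.36 and 4.73, then 4.51, 4.40 and 4.84, then 4.90, 4.79 and 5.16. Kctd14 in Sle1b.BAC read 4.57, 4.78 and 4.79, then 4.45, 4.43 and 4.54, then 4.84, 4.79 and 5.18. C57BL/6 was higher without overlap unstimulated and at 4 h, and overlapped with both lines at 24 h. Mean differences were -0.52 ± 0.09 and -0.53 ± 0.09. Sets 2 and 3 gave -0.13 to -0.26. No set of Kctd14 was called at 4 h or 24 h by limma; set 1 changed by 0.17 ± 0.09 at 24 h (adjusted p = 0.179). Its relatives of the Kctd family (14 probe sets of 8 genes) held 0 calls between strains, while 3 rose and 8 fell at 24 h, led by Kctd12 (-3.42 ± 0.24, adjusted p = 1.16e-10).

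The genes most like Kctd14 set 1 over the 26 arrays, with time means removed, were the B cell receptor component Cd79b (r = 0.87) and the class II genes H2-Aa and H2-Eb1 (both r = 0.84). These coefficients describe arrays that share strain differences and normalization. The summed intensity of 6 measured B cell markers of 7 listed ran from 346 to 638 in C57BL/6, 211 to 418 in B6.Sle1b and 264 to 429 in Sle1b.BAC, with Pax5 at background. Unstimulated, its means were 579, 332 and 343. Cd79b itself was lower by -0.89 ± 0.14 in B6.Sle1b (limma adjusted p = 0.00421) and -0.73 ± 0.14 in Sle1b.BAC (adjusted p = 0.0332). The part of B cell RNA in the Kctd14 difference was not tested, and in bulk samples fewer cells of a type and less RNA per cell cannot be told apart.

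**Figure D4:**
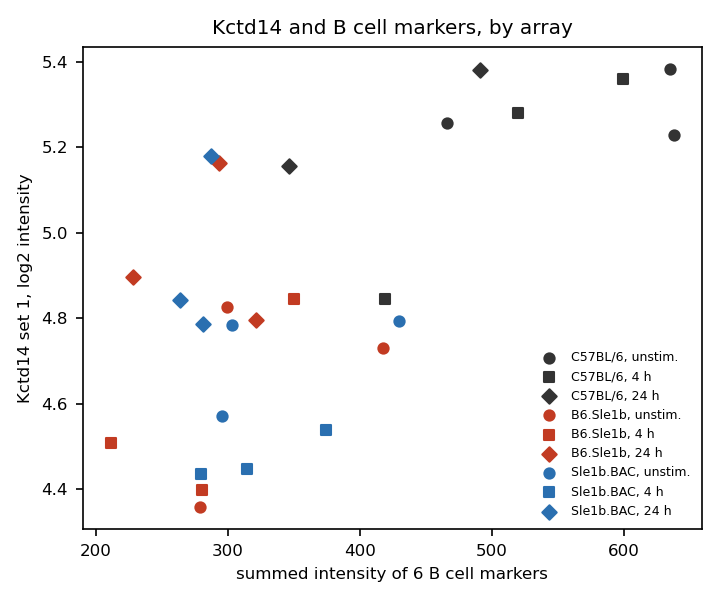
Kctd14 set 1 (log2 intensity) is plotted against the summed intensity of 6 B cell markers, with 1 point per biological array, colour for strain and shape for time. C57BL/6 arrays reach 638 on the horizontal axis, and no array of the lines exceeds 429.

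The other marker lists were as follows. All 5 measured CD4 T cell markers of 8 listed were above background and 0 were called between strains by limma, with sums of 3765 to 6958. Neutrophil markers (7 of 8 measured) summed to 63.6 to 171 in C57BL/6, 94.8 to 666 in B6.Sle1b and 114 to 804 in Sle1b.BAC, with 0 called. The brightest, S100a8 and S100a9, differed by 2.77 and 2.55 in B6.Sle1b and by 3.32 and 3.17 in Sle1b.BAC. In the same order of lines, Ngp gave 1.0 and 0.83, Camp 0.83 and 0.94, and Ltf 0.38 and 0.20. Mmp9 (-0.04 and 0.01) and Csf3r (-0.01 and 0.06) lay near 0. Of 6 measured monocyte and macrophage markers of 7, the lysozyme Lyz2 was called higher in each line (1.28 ± 0.22 and 1.47 ± 0.22). The others were not called. Fcgr3 gave 0.36 in B6.Sle1b and 0.69 in Sle1b.BAC, and Cd14 gave 0.11 and 0.25. Csf1r (0.05 and -0.08), Cd68 (0.03 and 0.07) and Adgre1 (0.03 and 0.06) lay near 0. Erythroid markers (4 of 8 measured, Alas2 and Epb42 at background) summed to 595 to 3821 in C57BL/6, 1476 to 3820 in B6.Sle1b and 199 to 2477 in Sle1b.BAC. CD8 T cell markers summed to 33.0 to 58.6 over all strains. NK cell markers summed to 185 to 455 in C57BL/6, 110 to 265 in B6.Sle1b and 135 to 276 in Sle1b.BAC, with unstimulated means of 362, 230 and 226. Neither list held a call. The NK receptor gene Klrd1 differed by -0.63 ± 0.13 in B6.Sle1b (limma adjusted p = 0.0604) and by -0.45 ± 0.13 in Sle1b.BAC (adjusted p = 0.277). The other NK markers differed by less and in both directions. In B6.Sle1b and Sle1b.BAC, Prf1 gave 0.08 and 0.18, Klrb1c -0.09 and -0.19, and Ncr1 -0.11 and 0.004. Klrd1 was the brightest NK marker (mean 7.40, next Prf1 at 3.92), so the NK sums mostly reflect Klrd1. The part of these marker lists in the members' differences was not tested.

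**Figure D5:**
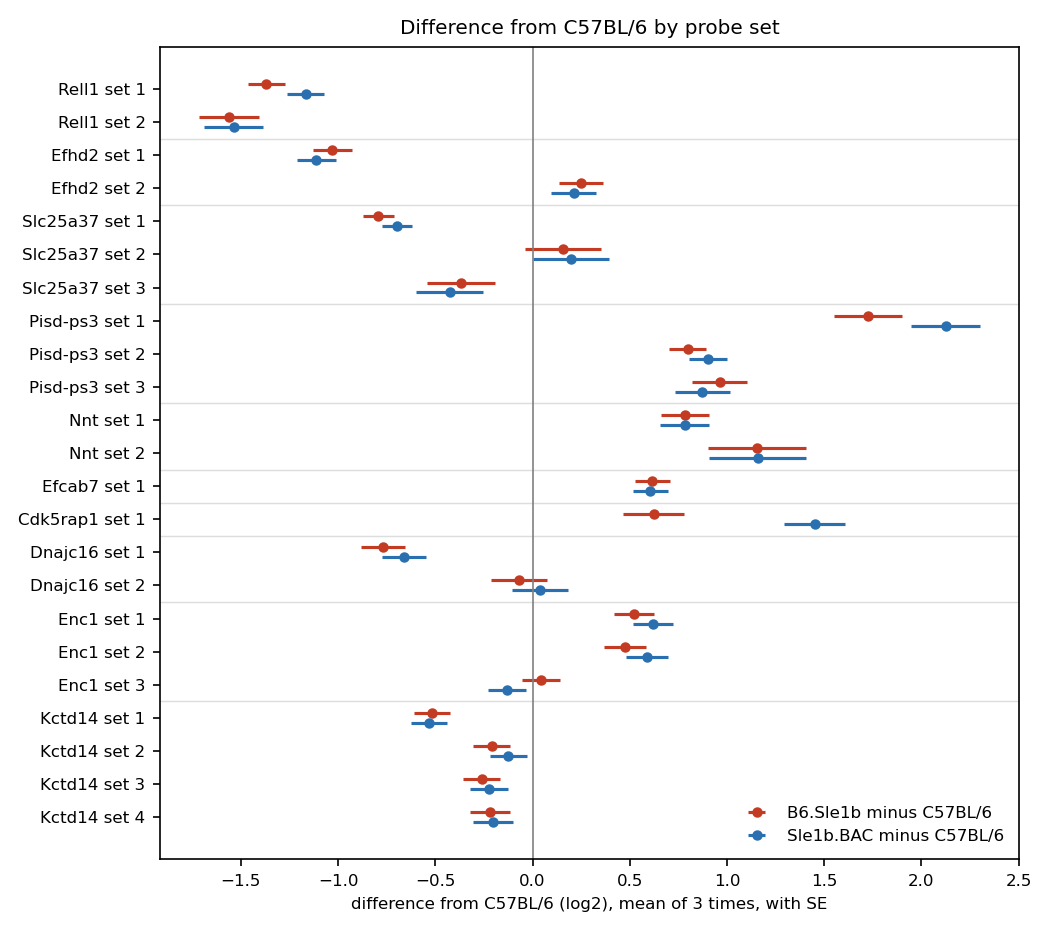
The difference of each line from C57BL/6, averaged over the 3 times, is plotted for all 23 probe sets with its SE. The probe sets of Rell1, Pisd-ps3 and Nnt lie on the same side of 0, whereas Efhd2 set 2 (0.25 and 0.21) and Slc25a37 set 2 (0.16 and 0.20) lie on the other side from set 1 of their gene.

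Patterns over the arrays linked several members to each other. With the time means removed, the probe sets most like Nnt set 1 were those of Enc1 (r = 0.88), Slc35g1 (0.87) and Nrp1 (0.87), and those most like Pisd-ps3 set 1 were Slamf6 (0.94), Nnt (0.87) and Tmem181b-ps (0.82). Slc25a37 set 1 was most like Slamf6 and Rell1 (0.90 and 0.89), and Efcab7 was most like Il17a (0.79), Slamf6 (0.78) and Ctla4 (0.74). These were different probe sets of Slamf6, with opposite signs. The Slamf6 set like Pisd-ps3 and Efcab7 was higher than wild type, by 1.38 (B6.Sle1b) and 1.43 (Sle1b.BAC). The Slamf6 set most like Slc25a37 was lower than wild type, with differences of -1.74 and -1.41 in the same order. Cdk5rap1 was most like 2 probe sets of Pisd-ps3 (0.78 and 0.78) and Zfp942 (0.70). Enc1 set 1 was most like Slc35g1 (0.86), Nnt and Prg4 (both 0.85). Dnajc16 set 1 was most like Efhd2 (0.88), Apoe and Wbp1 (both 0.87). Of the 30 closest partners of the 10 brightest sets by Pearson correlation, 12 were also among the closest 3 by Spearman correlation; none of those of Rell1, Efhd2 and Pisd-ps3 was, nor was Cd79b for Kctd14. Members were picked for a strain difference, so their likeness to each other and to Slamf6, a gene of the SLAM interval, is no independent result.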

How the data were processed

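Each of 28 RNA samples was measured on 1 Affymetrix HT MG-430 PM array. The deposited values are linear intensity, which the authors computed by RMA, per the submitters' processing notes; its version is not stated in the labels. The method subtracts background, brings arrays to 1 distribution and condenses each set's probes into 1 value. Depth does not apply to arrays, whose number limits the precision.

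Log2 was taken of the deposited intensity without a pseudocount. All 45037 probe sets that are not controls entered 1 limma 3.58.1 fit (R 4.3.3) of 26 arrays with 9 group means, and p-values were adjusted by Benjamini-Hochberg within a contrast, with 0.05 as threshold. The fit was tested on simulated data. Background was the 95th percentile of 23 non-specific control probe sets of an array. All probe sets with a single platform symbol among the members are named, as are called neighbours and relatives, and the 3 probe sets most like each gene's brightest set. Examples of relatives, the order of Cdk5rap1 by number and its exact test were chosen after their values were seen. Bounds for groups at background use the higher of background and value per array. The members and lists were chosen with earlier results of these data known. Alternatives covered scaling, an offset, filters, weights, blocks and left-out arrays; 1, without the 3 dimmest arrays outside the 24 h groups, was chosen after seeing the data.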

Additional observations from a re-analysis of the deposited data

Results flagged for a closer look

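On group means, Enc1 sets 1 and 2 fell with anti-CD3 in Sle1b.BAC and rose in C57BL/6. The unstimulated arrays of both strains entered the contrast on which Enc1 was picked. In set 1 at 4 h and 24 h and in set 2 at 24 h, every stimulated array of Sle1b.BAC lay below every unstimulated one. In the same sets and times, every stimulated array of C57BL/6 lay above every unstimulated one. In set 2 at 4 h the C57BL/6 arrays overlapped with the unstimulated ones (lowest 6.45 against highest 6.46). The rise of set 1 in C57BL/6 at 24 h was not called. The share of all probe sets that part in this way was not counted. For set 1 the response at 4 h in Sle1b.BAC minus that in C57BL/6 was -0.68 ± 0.24 (limma adjusted p = 0.971). At 24 h it was -1.07 ± 0.26 for set 1 (limma adjusted p = 1.0) and -0.86 ± 0.27 for set 2 (limma adjusted p = 1.0). None was called over the whole array, and all 3 had an unadjusted p under 0.05. The same held for 1671 of all 45037 probe sets at 4 h and 873 at 24 h.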

How the results depend on the processing

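Scaling the arrays again, an offset of 16, a filter on dim probe sets, array brightness as a covariate, array weights, fits of only the groups compared, other uses of the technical arrays and the replicate number as a block were tried. No called value changed sign. The differences of Dnajc16 set 2 (-0.07 in B6.Sle1b, 0.04 in Sle1b.BAC) and of Enc1 set 3 in B6.Sle1b (0.04) lay near 0 and changed sign under some settings (up to 0.04, down to -0.04 and down to -0.02). Between the lines (1 called), 0 were called after a second quantile normalization, after centring arrays on their median, with 16 added, with only the groups compared and with a random replicate block of strain and number, and 5 with array weights. Array weights also called 6 unstimulated, 5 at 4 h (reported 0 and 0), 13 for 4 h against unstimulated (reported 3; 5 with array brightness), and 4 for the change of the strain difference at 4 h (reported 0); their estimation ended with a convergence warning. With 1 probe set per gene, which kept the brightest set of each of the 10 genes, 7 of 10 were called at 24 h (reported 14 of 23). Neighbours called in B6.Sle1b (reported 2) were 1 after centring, with only the groups compared and with the random block, 4 with brightness and 6 with weights; in Sle1b.BAC (reported 2) they were 1, 1, 1, 7 and 14, and 4 without the 3 dim arrays. Relatives called between strains (reported 0) were 2 with brightness in each line, and 1 and 5 with weights. Leaving out 1 array at a time gave 0 to 1 between the lines. It gave 3 to 5 at 4 h (5 without array 3 of unstimulated C57BL/6) and 12 to 15 at 24 h. Neighbours called in B6.Sle1b were then 0 to 3. They were 0 without array 1 of C57BL/6 at 24 h, and 3 without array 2 of C57BL/6 at 24 h or unstimulated. In Sle1b.BAC they were 1 to 3 (3 without array 2 of unstimulated C57BL/6 or of Sle1b.BAC at 4 h). Probe sets without overlap were 10 to 12 (reported 10), against 0.091% to 0.115% of all. They were also 12 without the 3 dim arrays, against 0.129% of all. For limma calls under these alternatives the share of all probe sets is not given. The counts are therefore not read as results about the members.

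The call of Cdk5rap1 between the lines was lost without arrays 1 or 3 of C57BL/6 at 4 h or array 3 unstimulated; without arrays 2 or 3 of B6.Sle1b at 4 h, any at 24 h or array 3 unstimulated; or without arrays 1 or 3 of Sle1b.BAC at 4 h, 2 or 3 at 24 h or 2 unstimulated, with values of 0.76 to 0.87. The cause of these changes was not tested. With 16 added, the differences of Rell1, Efcab7 and Dnajc16 shrank, for example from 0.62 to 0.26 in Efcab7.

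Replicate numbers did not pair the samples by the rule that every same-numbered pair correlates above 0.1: 47 of 100 pairs did, among them 14 of 25 within a strain over time (median r 0.15, against -0.10 for other numbers) and 33 of 75 across strains. Of 26 arrays, 12 were most like arrays of their own number. With the number as a fixed replicate block, 1 was called between the lines, 3 at 4 h and 14 at 24 h, as without it. That block gives a number the same shift in every strain. It cannot take up the order of Cdk5rap1, which was reversed between the lines. With strain and number as a random block, the call of Cdk5rap1 was lost.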

Other observations

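Probe sets other than that of Cdk5rap1 also kept an order by replicate number within a strain. Nnt set 1 was highest on array 1 and lowest on array 2 of C57BL/6 at the times measured, and Enc1 sets 1 and 2 were both highest on array 2 and lowest on array 3 of B6.Sle1b at all 3 times. By upper quartile of intensity, array 3 of B6.Sle1b was also the dimmest of its group each time (35.6, 39.2 and 35.6). Array 2 of C57BL/6 was the dimmest unstimulated and at 24 h (34.8 and 39.5), but not at 4 h (41.4 against 40.7 for array 3). The part of array brightness in these orders was not tested. The share of the variation within groups that lay between sets of strain and number was 74.3% for Pisd-ps3 set 1, 69.0% for Kctd14 set 1 and 68.6% for Slc25a37 set 1, with 763, 1879 and 1997 probe sets above them. The 1 probe set with a higher share than Cdk5rap1 was that of the immunoglobulin light chain segment Igkv6-15.

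The technical C57BL/6 arrays at 24 h entered no test. They lay on the C57BL/6 side of every array of the lines in 13 of the 14 member probe sets that separated the strains at 24 h. Those 14 were selected by C57BL/6 arrays of the same strain and time. The same count was not made over all probe sets separated at 24 h, so nothing is read from it. The exception was Cdk5rap1.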
